A study of Mus musculus with 8 samples.

Results

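The 28 genes described here encode GABA and glycine receptor subunits, the proteins that anchor and carry these receptors, and the transporters and enzymes that handle chloride and GABA. They were listed by name and known role, with earlier results of these data known, and are 28 of the 25276 genes with any count. The list holds 12 GABA-A receptor subunits, 2 GABA-B receptor subunits, 4 glycine receptor subunits, 3 inhibitory postsynaptic proteins, 3 transporters, 2 enzymes of GABA breakdown and the pair *Gabarap* and *Gabarapl1*. Of these, 27 had enough counts to be compared between females and males, out of 15194 genes in all, and *Gabra6* did not.

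RNA was sequenced from sorted somatostatin (SST) neurons of the tuberal nucleus (TN) of the hypothalamus in 4 female and 4 male adult mice, with 1 library per mouse. All 8 mice carried a single *Sst-Cre* allele (Ssttm2.1(cre)Zjh/J / +) and all received the agent AAV2-flex-tdTomato, a virus whose red fluorescent protein is made where Cre is present. Cre came from the *Sst* locus, so that the label marked cells that had expressed *Sst* at any time before the sort, and the cells of each mouse were pooled. The sexes differed by sex alone in the labels, ages in weeks and estrous stages were not given in the sources used here, and no library of unlabeled cells was analysed here.

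Fast inhibition runs through GABA-A and glycine receptors, chloride channels made of several subunits around a pore, and the choice of subunit sets where a channel sits and which drugs and steroids act on it. GABA-B receptors are pairs of *Gabbr1* and *Gabbr2* that act more slowly through G proteins. Whether an open chloride channel inhibits a neuron depends on chloride inside the cell, which *Slc12a5* (KCC2) lowers and *Slc12a2* (NKCC1) raises. TN SST neurons are themselves GABA neurons of a feeding circuit, and these genes encode parts through which such cells can be inhibited. RNA levels of the sorted cells measure neither inhibition nor which cells carried a transcript.

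*Gabbr1* and *Slc12a5* are each read from more than 1 start site, and which start is used decides the first stretch of the protein. The first 60 coding bases of the main *Gabbr1* forms are given because the start sites are compared further on. Gabbr1-201 begins coding at chr17:37046695-37046754 and encodes the long form, GABA-B1a, with a pair of sushi domains that direct it to axons. Gabbr1-203 begins at chr17:37050854-37050913 and encodes the shorter form, GABA-B1b. Both lie on the plus strand of GRCm38 (mm10) and are written 5′ to 3′, with capitals marking bases of the first coding exon. For *Slc12a5*, on chromosome 2, the transcript Slc12a5-207 starts at exon 1a and encodes KCC2a, and Slc12a5-201 starts at exon 1b and encodes KCC2b.
Gabbr1-201: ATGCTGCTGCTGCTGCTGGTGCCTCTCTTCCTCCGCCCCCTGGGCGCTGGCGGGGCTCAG
Gabbr1-203: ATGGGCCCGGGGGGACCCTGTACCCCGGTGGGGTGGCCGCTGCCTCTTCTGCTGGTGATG

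*Gabarap* and *Gabarapl1* are close relatives that carry receptors and also serve in autophagy, and they are shown because they differed in level. Their log2 fold changes of females over males were -0.44 ± 0.147 (SE) for *Gabarap* and 0.08 ± 0.0991 for *Gabarapl1*, the latter smaller than its SE. Neither passed the test. Their coding sequences are both 351 bases long and 262 bases are the same, which is 74.6%. In the first 60 bases, at chr11:69991713-69991772 for Gabarap-201 and chr6:129533447-129533506 for Gabarapl1-201 (mm10, plus strand), 20 bases differ and are in capitals. No stretch of 31 bases, the length kallisto matches by default, is shared between the transcripts of these relatives, since *Gabarap* shared none with any other gene.
Gabarap-201: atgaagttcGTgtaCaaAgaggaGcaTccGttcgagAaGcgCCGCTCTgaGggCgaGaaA
Gabarapl1-201: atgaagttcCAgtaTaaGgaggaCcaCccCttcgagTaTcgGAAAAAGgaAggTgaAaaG

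In units of 1000000 estimated counts, libraries held between 7.83 and 17.6, and the limit of detection, set at 3 counts, came to 0.148 to 0.458 CPM, which are counts scaled to a library of that size. Such limits cover counting error only. The label was checked against marker genes. *Sst*, the gene that drives the label, had a mean of 1188 TPM (transcripts scaled to a sum of 1000000) and ranked 45 among all genes. All 8 markers of neurons and all 4 markers of SST and GABA neurons were present in every mouse. Markers of other cells were present too. The 8 neuron markers summed to 2743 to 3634 TPM in females and 2297 to 2908 TPM in males, the 8 astrocyte markers to 272 to 564 and 512 to 748 TPM, the 8 microglia markers to 368 to 2082 and 781 to 4002 TPM, and the 7 oligodendrocyte lineage markers to 361 to 1491 and 528 to 1359 TPM. None of these marker genes was at 0 in all mice. All 8 neuron markers had a log2 fold change of females over males above 0, with a median of 0.15, and all 8 astrocyte, all 8 microglia and all 7 oligodendrocyte lineage markers had one below 0, with medians of -0.71, -1.42 and -0.78. The 6 markers of neurons of the neighbouring ventromedial nucleus summed to 177 to 375 TPM in females and 87.0 to 205 TPM in males, and 5 of the 6 had a log2 fold change above 0, with a median of 0.61. No marker passed an adjusted p of 0.05. In bulk RNA, fewer cells of a type and less RNA per cell cannot be told apart.

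TPM is scaled by transcript length and is the unit used here to compare levels between genes. *Gabbr1*, the GABA-B subunit that binds GABA, was the highest of the 28 with a mean of 469 TPM over the 8 mice, followed by *Gabarapl1* with 401 TPM and the chloride exporter *Slc12a5* with 378 TPM. Their ranks among all genes by mean TPM were 187, 241 and 269. A gene's TPM summed all of its transcripts, and the order of some genes turned on which were counted. With protein-coding transcripts alone, an alternative chosen after the data were seen, *Gabarapl1* led with 401 TPM, ahead of *Slc12a5* with 262 and *Gabbr1* with 254. At the other end, *Gabrd* had 4.31 TPM, and *Gabra6*, the alpha subunit known from cerebellar granule cells, was listed at 0 in 7 mice and had 3 counts, or 0.303 TPM, in male 2. A count of 0 allowed at most the CPM limits given above. Means above 10 TPM were found for 25 of the 28 genes. When the genes were put in order of mean TPM, the order of neighbours held in all 8 mice for 6 of 27 neighbouring pairs and in 7 mice for 3 pairs. For the other 18 pairs it held in 6 mice or fewer, and such neighbours could not be told apart given the spread over mice.

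**Figure D1:**
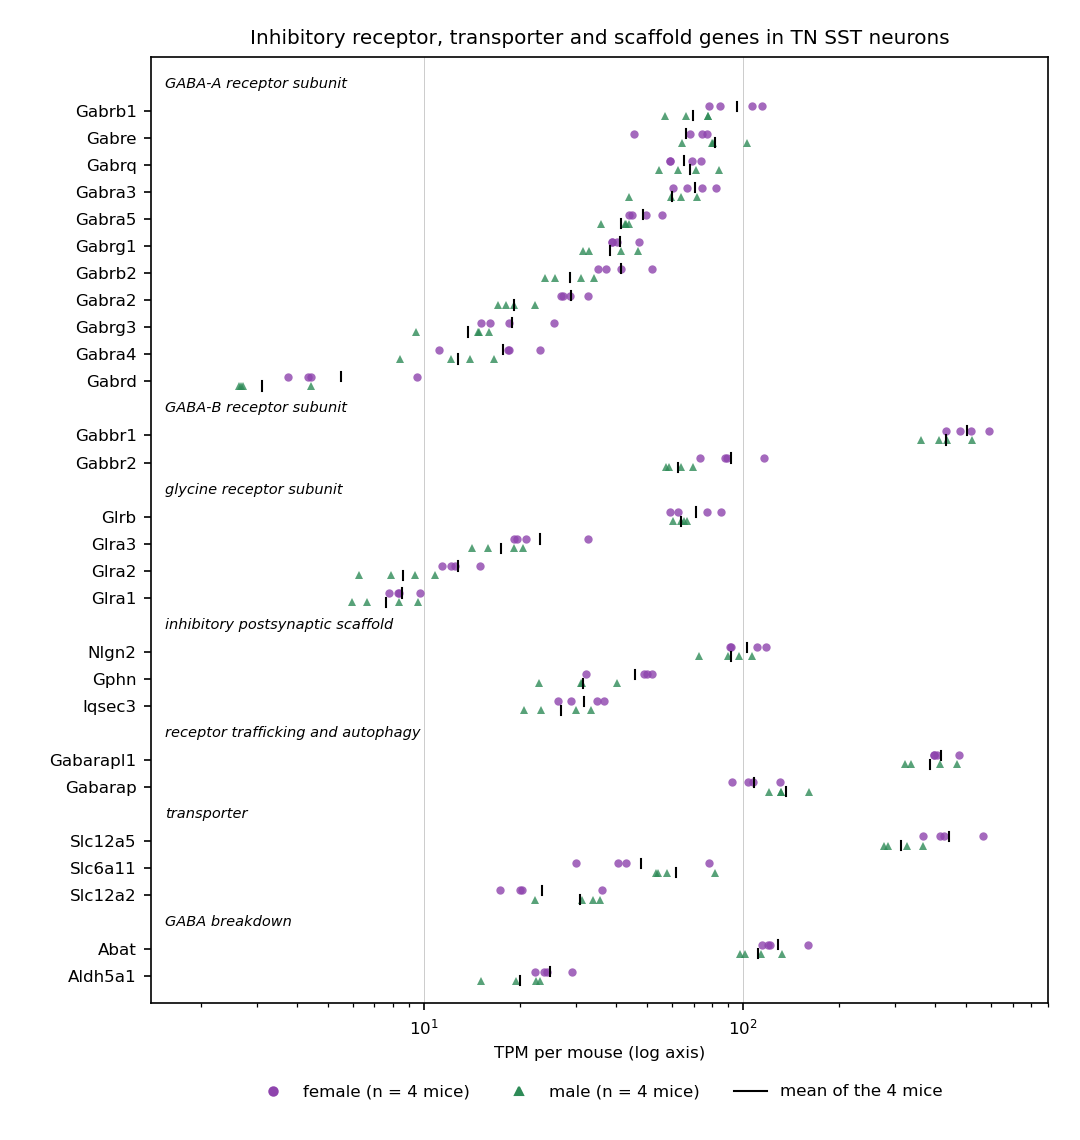
TPM of 27 inhibitory genes in each mouse on a log axis, grouped by role, with females as circles, males as triangles and black ticks for the mean of 4 mice. *Gabra6*, listed at 0 in 7 mice, is not drawn. *Gabbr1*, *Gabarapl1* and *Slc12a5* lie furthest to the right and *Gabrd* furthest to the left.

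Among the alpha subunits described, which form the GABA and benzodiazepine sites and set the position of the receptor, *Gabra3* and *Gabra5* led. The female mean of *Gabra3* was 70.9 ± 9.44 TPM and the male mean 59.8 ± 11.7 TPM (SD, n = 4 each). *Gabra5*, known for receptors outside synapses, had 48.6 ± 5.39 TPM in the females and 41.5 ± 3.70 TPM in the males. *Gabra3* made up a mean of 43.6% of the TPM of the 5 alpha genes described, *Gabra5* 30.2%, *Gabra2* 16.0% and *Gabra4* 10.2%, while other alpha subunits were not analysed here. The order *Gabra3*, *Gabra5*, *Gabra2*, *Gabra4* held pair by pair in all 8 mice on total TPM, although the ratio of *Gabra2* to *Gabra4* came down to 1.02 in the mouse where it was lowest. Transcripts annotated as not coding held a mean of 65.0% of the TPM of *Gabra2*, led by Gabra2-204 of the nonsense-mediated decay class, against 3.09% for *Gabra4*. With protein-coding transcripts alone *Gabra2* came to 8.25 TPM and *Gabra4* to 14.8 TPM, with *Gabra4* higher in all 8 mice, and *Gabra3* was above *Gabra5* in 6 mice. Of the 2 beta subunits described, needed for assembly of the channel, *Gabrb1* held 70.3% and *Gabrb2* 29.7% of TPM, and *Gabrb1* was 2.39 ± 0.276 times *Gabrb2* (SD over 8 mice). Of the *Gabrb1* value, 66.7% of TPM but 8.47% of counts belonged to its leading transcript, which is 799 bases long. Without it, a choice made after the data were seen, *Gabrb1* had 27.5 TPM and lay below *Gabrb2* in all 8 mice, so the order of the beta genes was uncertain.

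The remaining subunits, which join alpha and beta in the channel, were led on total TPM by *Gabre* (epsilon) and *Gabrq* (theta), whose transcripts are known from few brain regions, the hypothalamus among them. *Gabre* had a mean of 74.1 TPM and *Gabrq* 66.7 TPM, above *Gabrg1* with 39.7, *Gabrg3* with 16.3 and *Gabrd*, the delta subunit of tonic, steroid-sensitive receptors, with 4.31. *Gabre* was higher than *Gabrq* in 7 of 8 mice, and *Gabrq* was higher than *Gabrg1* in all 8. Of the TPM of *Gabre*, 23.6% to 49.7% came from transcripts annotated as not coding, and none of that of *Gabrq* did. With protein-coding transcripts alone *Gabre* had 45.7 TPM and lay below *Gabrq* in all 8 mice, while *Gabrg1* had 19.9 TPM and stayed below *Gabrq* in all 8. Of the summed TPM of these 5 genes, *Gabre* held 36.6%, *Gabrq* 33.1%, *Gabrg1* 19.9%, *Gabrg3* 8.17% and *Gabrd* 2.16%. *Gabre*, *Gabra3* and *Gabrq* are neighbours on the X chromosome (mm10 chrX:72255999-72842602), and their levels were similar, with means of 74.1, 65.4 and 66.7 TPM. *Gabrg1*, *Gabra2*, *Gabra4* and *Gabrb1* form another cluster on chromosome 5 (chr5:70751047-72149037), whose levels ran from 15.3 TPM for *Gabra4* to 82.8 TPM for *Gabrb1*.

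The GABA-B subunits were unequal. *Gabbr1* was 6.24 ± 0.910 times *Gabbr2* in TPM (SD over 8 mice) and lay above it in every mouse. Part of the *Gabbr1* value came from transcripts annotated as not coding, which held 39.9% to 50.9% of the gene's TPM, while Gabbr1-203, the leading transcript, held 41.9% of TPM and 76.8% of counts. With protein-coding transcripts alone *Gabbr1* was 3.53 ± 0.556 times *Gabbr2* and again above it in every mouse. Gabbr1-203 (GABA-B1b) outweighed Gabbr1-201 (GABA-B1a) in all mice. Of the TPM of these 2 forms, Gabbr1-203 held 93.7%, 93.8%, 94.0% and 94.2% for females 1 to 4 and 91.8%, 94.2%, 94.4% and 90.8% for males 1 to 4. By counts the mean share was 91.5%. The sexes overlapped, and the shares spanned 90.8% to 94.4%, so that of these 2 transcripts the same form led in all 8 mice. Grouped by start over all transcripts of the gene, the margin was smaller. Those at the Gabbr1-203 start held a mean of 42.6% of TPM and 77.0% of counts. Those that start upstream of it held 18.7% of TPM and 17.5% of counts, and the rest started elsewhere.

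The start sites of *Slc12a5* gave a less settled picture. Transcripts that start at exon 1b held 69.5% to 79.2% of the gene's TPM but 44.2% to 64.9% of its counts, since short transcripts weigh more in TPM. A partial transcript of 1202 bases that starts at exon 1b was the leading one with 36.6% of TPM and 16.8% of counts. When only Slc12a5-201 (KCC2b) and Slc12a5-207 (KCC2a) were compared, Slc12a5-201 held 41.9%, 65.6%, 43.7% and 36.8% of their TPM for females 1 to 4 and 50.7%, 28.8%, 37.0% and 44.5% for males 1 to 4. Neither form led in all mice, and the sexes overlapped. Transcripts of both starts were thus present, and the share of each depended on which transcripts were counted.

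**Figure D2:**
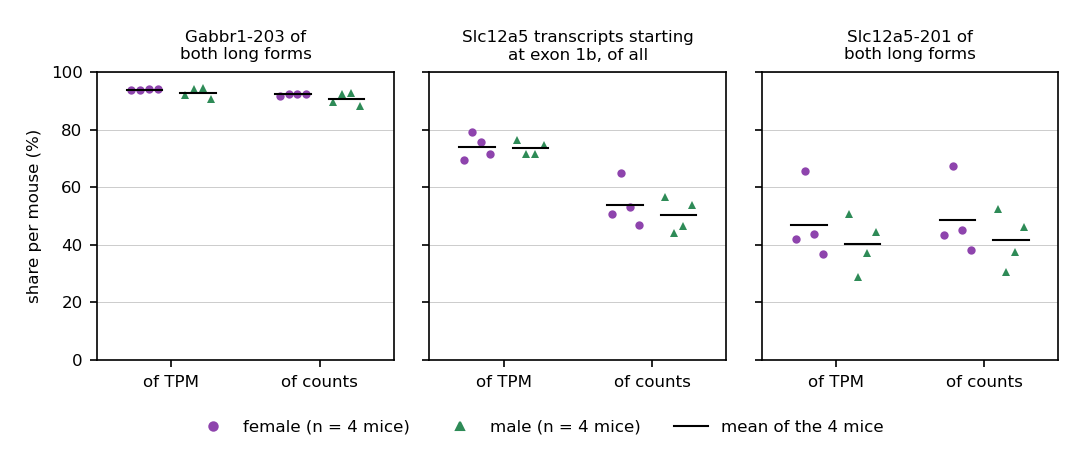
Share of 3 sets of transcripts in each mouse, in percent of TPM and of counts, with females as circles, males as triangles and lines for the mean of 4 mice. The share of Gabbr1-203 runs from 88.3% to 94.4% over both scales, while the shares of *Slc12a5* shift with the unit and with the transcripts compared.

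Among the glycine receptor genes, the beta subunit *Glrb*, which ties the receptor to gephyrin, was highest with 67.6 TPM. *Glra3* had 20.3 TPM, *Glra2*, the form known from early development, 10.7 TPM, and *Glra1*, known from the adult spinal cord and brainstem, 8.10 TPM. *Glrb* was 3.45 ± 0.605 times *Glra3* (SD over 8 mice) and *Glra3* was above *Glra2* in all 8 mice. *Glra2* was above *Glra1* in 6 of 8 mice. *Glra3* held 51.5% of the TPM of the 3 alpha genes, *Glra2* 27.3% and *Glra1* 21.3%.

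The inhibitory postsynaptic proteins were all present. *Nlgn2* (neuroligin-2), the adhesion protein of inhibitory synapses, had 97.3 TPM, *Gphn* (gephyrin), the scaffold beneath GABA-A and glycine receptors, 38.6 TPM, and *Iqsec3*, a gephyrin-binding exchange factor, 29.2 TPM. *Nlgn2* was above *Gphn* and *Gphn* above *Iqsec3* in all 8 mice. Of the pair that carries receptors, *Gabarapl1* was 3.40 ± 0.878 times *Gabarap* (SD over 8 mice). For GABA breakdown, *Abat*, the GABA transaminase, had 120.2 TPM and *Aldh5a1*, the next enzyme of the pathway, 22.4 TPM, with *Abat* 5.40 ± 0.517 times *Aldh5a1*. *Slc6a11* (GAT-3), a GABA uptake transporter known mainly from astrocytes, had 54.9 TPM, and *Slc12a2* had 27.1 TPM.

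The question of the design was whether females and males differ. None of the 27 inhibitory genes passed an adjusted p of 0.05 (quasi-likelihood test of edgeR, adjusted by Benjamini-Hochberg over 15194 genes), where 0.158% of all genes did, 0.112% higher in females and 0.0461% higher in males. Most of the fold changes lay on the female side, in a list chosen with earlier results of these data known. A log2 fold change of females over males above 0 was found for 22 of 27 genes, beside 49.4% of all genes, and the median was 0.18, beside -0.0043 over all genes. In TMM-scaled CPM, every female lay above every male for 10 genes, or 37.0% of the 27, where 6.48% of all genes did so. Every male lay above every female for 0 of 27 genes, beside 3.94% of all genes. At an unadjusted p under 0.05, 12 genes differed, or 44.4%, beside 20.5% of all genes. Of these, 11 were higher in females, where 9.86% of all genes were, and 1, *Gabarap*, was higher in males, where 10.7% were. DESeq2's Wald test put 8 of the 27 past an adjusted p of 0.05, all higher in females, a side on which it put 4.38% of all genes. These 8 were *Gabra2*, *Gabra4*, *Gabrb1*, *Gabrb2*, *Gabrg3*, *Gabbr2*, *Gphn* and *Slc12a5*.

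*Gabbr2*, the GABA-B subunit that couples to the G protein, had the smallest adjusted p of the list. Females 1 to 4 had 172, 194, 203 and 184 CPM, and males 1 to 4 had 150, 134, 143 and 143 CPM. All females lay above all males, and the spread within a sex was small. The log2 fold change was 0.40 ± 0.0736 (SE), with an adjusted p of 0.0690 in edgeR and 0.000413 in DESeq2. For its partner *Gabbr1* the female mean was 613 ± 26.0 CPM and the male mean 542 ± 47.4 CPM (SD, n = 4 each). The sexes overlapped, with a log2 fold change of 0.18 ± 0.0783 and an adjusted p of 0.239.

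*Slc12a5*, the chloride exporter, followed. Females 1 to 4 stood at 511, 565, 644 and 556 CPM, and males 1 to 4 stood at 462, 380, 421 and 412 CPM. Male 1 was the highest male and female 1 the lowest female, and the sexes did not overlap. The log2 fold change was 0.44 ± 0.0909, with an adjusted p of 0.0798 in edgeR and 0.000635 in DESeq2. *Slc12a2*, the chloride importer, pointed the other way. Here females 1 to 4 had 135, 79.0, 65.0 and 61.5 CPM, against 83.4, 125, 133 and 132 CPM for males 1 to 4. Female 1 lay with the high males and male 1 close to the lower females, so the sexes overlapped, and the log2 fold change was -0.48 ± 0.254 with an adjusted p of 0.316. Without female 1, the mouse whose removal moved it most, it was -0.79 ± 0.173 with an edgeR adjusted p of 0.0513. Leaving out each mouse in turn gave -0.79 to -0.36, with edgeR adjusted p-values of 0.0513 to 0.568.

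Among GABA-A subunits, the sexes did not overlap for 6 of 11 tested genes, all 6 higher in females, beside 6.48% of all genes with every female above every male and 3.94% the other way, and the median log2 fold change of the 11 was 0.41. For *Gabrb2*, females 1 to 4 stood at 76.4, 85.8, 91.1 and 87.9 CPM and males 1 to 4 at 65.5, 53.5, 68.9 and 52.4 CPM (log2 fold change 0.51 ± 0.111, edgeR adjusted p 0.0823). For *Gabra2*, in the same order, the females had 60.2, 69.2, 64.5 and 78.6 CPM and the males 56.1, 45.6, 49.2 and 45.6 CPM (0.47 ± 0.111, adjusted p 0.0930). In both genes female 1 was the lowest female in CPM, and no male reached it. With protein-coding transcripts alone, an alternative chosen after the data were seen, the sexes stayed apart for *Gabrb2* but overlapped for *Gabra2*. For *Gabra2*, females 1 to 4 then had 7.32, 8.15, 11.0 and 11.0 TPM and males 1 to 4 7.42, 4.72, 6.54 and 9.85 TPM. *Gabrb1*, the higher of the beta genes, gave 249, 275, 276 and 291 CPM for the females and 227, 171, 237 and 188 CPM for the males (0.41 ± 0.110, adjusted p 0.116). *Gabrg3* gave 78.3, 82.3, 98.4 and 84.3 CPM for the females and 74.2, 58.2, 69.6 and 53.8 CPM for the males (0.42 ± 0.122, adjusted p 0.129). Males 1 and 3 came nearest to the females in *Gabrb1* and *Gabrg3*.

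*Gabra4* and *Gabrd*, alpha and delta subunits known to join in receptors outside synapses, had the largest fold changes of the list in the fit of counts, and also low counts. The females had 27.2, 24.6, 41.7 and 36.2 CPM of *Gabra4* and the males 15.3, 21.8, 23.2 and 21.4 CPM, a log2 fold change of 0.67 ± 0.197 with an edgeR adjusted p of 0.134, which came to 0.38 ± 0.244 with an adjusted p of 0.462 when transcript length entered as an offset. Of *Gabrd* the females had 5.11, 4.89, 8.39 and 3.60 CPM and the males 2.93, 2.93, 2.14 and 3.02 CPM, a log2 fold change of 1.00 ± 0.310 with an adjusted p of 0.144. Female 3, the deepest library, was highest in both. Between 24 and 170 counts per mouse stood behind *Gabrd*. On the TPM scale the sexes overlapped for *Gabra4*, *Gabrd*, *Gabrg3* and *Gphn*, and stayed apart for the other 6 of the 10 genes.

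The other GABA-A subunits overlapped between the sexes. *Gabra3* and *Gabra5* had log2 fold changes of 0.24 ± 0.107 and 0.14 ± 0.0792, and *Gabrg1*, of the chromosome 5 cluster, had 0.07 ± 0.129. All 4 genes of that cluster had a log2 fold change above 0, beside 22 of the 27 tested genes and 49.4% of all genes. For 3 of them, *Gabra2*, *Gabra4* and *Gabrb1*, every female lay above every male in CPM, beside 10 of the 27 and 6.48% of all genes. *Gabre* was the GABA-A subunit furthest toward males. Females 1 to 4 stood at 147, 141, 108 and 84.9 CPM and males 1 to 4 at 201, 148, 168 and 124 CPM, with a log2 fold change of -0.42 ± 0.194 and an adjusted p of 0.258. Male 4 lay below females 1 and 2. Its neighbour *Gabrq* had -0.12 ± 0.164, so the 3 neighbours on the X chromosome did not share a sign.

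Of the 4 glycine receptor genes, *Glra2* was the 1 whose sexes did not overlap, beside 6.48% of all genes with every female above every male. It stood at 21.5, 28.3, 19.2 and 19.3 CPM for the females and 19.1, 11.7, 16.6 and 14.5 CPM for the males. Male 1 lay just below the lowest female, and the log2 fold change was 0.51 ± 0.187 with an edgeR adjusted p of 0.193. *Glra1*, *Glra3* and *Glrb* had log2 fold changes of 0.10 ± 0.190, 0.31 ± 0.149 and 0.15 ± 0.0940, and their sexes overlapped.

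Of *Gphn* the females had 62.5, 50.7, 55.6 and 63.5 CPM and the males 50.4, 42.0, 45.8 and 41.8 CPM, a log2 fold change of 0.37 ± 0.106 with an edgeR adjusted p of 0.130. Female 2 and male 1 were nearly equal, with the sexes just apart. *Nlgn2* and *Iqsec3*, the other postsynaptic genes, had 0.11 ± 0.109 and 0.16 ± 0.142 and overlapped, as did the enzymes *Abat* and *Aldh5a1* with 0.14 ± 0.102 and 0.23 ± 0.121.

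*Gabarap* was the gene with an unadjusted p under 0.05 on the male side. The females had 61.3, 51.5, 43.5 and 42.0 CPM and the males 58.0, 80.8, 65.3 and 64.0 CPM. Female 1 lay above male 1, so the sexes overlapped, and the log2 fold change was -0.44 ± 0.147 with an edgeR adjusted p of 0.167. The female mean of *Gabarapl1* was 293 ± 20.3 CPM and the male mean 277 ± 35.7 CPM (SD, n = 4 each). Its log2 fold change was 0.08 ± 0.0991. *Slc6a11* was the most variable transporter, at 100.5, 192, 60.6 and 87.2 CPM for the females and 126, 135, 134 and 199.9 CPM for the males. Female 2 stood with the highest male, the sexes overlapped, and the log2 fold change was -0.44 ± 0.315 with an adjusted p of 0.449. Single mice moved it by more than 1.5 times, to -0.86 without female 2 (adjusted p 0.158), -0.24 without female 3 (0.718) and -0.27 without male 4 (0.714).

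The neuron markers moved with this result. Their mean log2 CPM came to 8.13, 8.25, 8.31 and 8.24 for females 1 to 4 and to 8.18, 7.81, 7.99 and 7.85 for males 1 to 4, so that female 1 was the lowest female and male 1 the highest male. Without female 1, *Gabbr2* (adjusted p 0.0370), *Slc12a5* (0.0426) and *Gabrb2* (0.0478) passed the threshold in edgeR, and without male 1, *Gabbr2* (0.0450), *Slc12a5* (0.0447) and *Gabra2* (0.0484) did. The genes called over all rose as well, from 24 to 415 of 15544 without female 1 and to 411 of 15516 without male 1. With the neuron marker mean as a covariate, 15 of the 27 genes had a log2 fold change above 0, where 52.1% of all genes did, and the median was 0.085. The 10 genes whose sexes did not overlap all stayed above 0, between 0.085 for *Gabrg3* and 0.87 for *Gabrd*. These 10 were picked by sex in the same mice, which favors a sign above 0, and of the other 17 tested genes 5 were above 0. Of the 10, 9 were smaller than with sex alone, the exception being *Gabra4* with 0.82 ± 0.338. With the astrocyte and microglia marker mean as a covariate, 17 of 27 were above 0, where 50.3% of all genes were, with a median of 0.082. No inhibitory gene passed the threshold in these fits, where the smallest adjusted p-values were 0.775 and 0.475. The oligodendrocyte lineage and ventromedial nucleus markers, of which all 7 and 1 of 6 lay below 0 in log2 fold change, entered neither fit. The part of cell makeup in the sex differences was not tested beyond these fits.

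**Figure D3:**
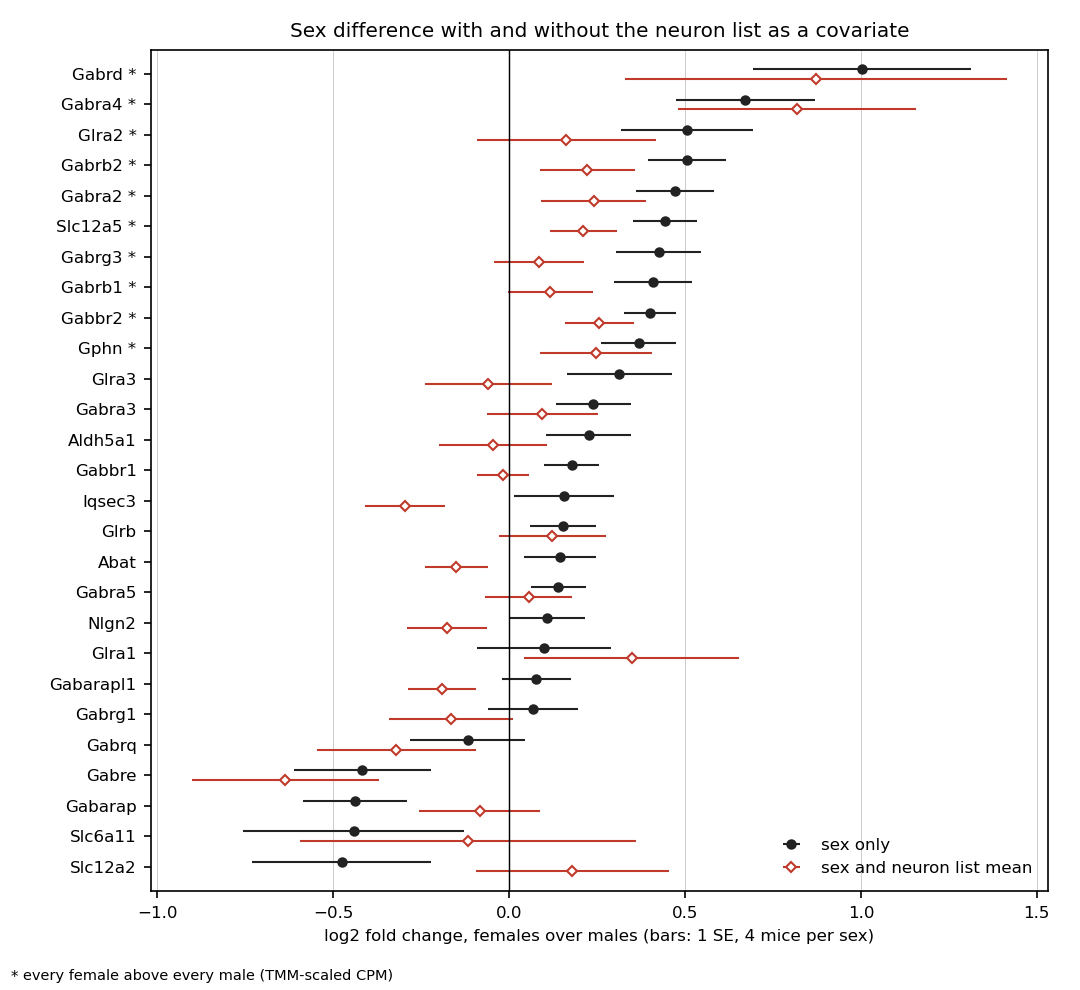
Log2 fold change of females over males for the 27 tested genes, with bars of 1 SE, from the fit with sex alone (filled circles) and from the fit with the neuron marker mean added (open diamonds), 4 mice per sex. Asterisks mark the 10 genes whose sexes did not overlap in CPM, which were thus picked in the same mice and lie to the right of 0 in both fits. Of the others, 9 change sign, namely *Slc12a2* from below to above 0 and *Gabrg1*, *Gabbr1*, *Glra3*, *Nlgn2*, *Abat*, *Aldh5a1*, *Gabarapl1* and *Iqsec3* from above to below.

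Ratios of partners within a mouse do not depend on its total count, but the part of cell makeup in them was not tested. The ratio of *Slc12a5* to *Slc12a2* in TPM was 10.2, 20.4, 28.1 and 24.5 for females 1 to 4 and 16.4, 8.79, 9.18 and 8.39 for males 1 to 4. All females but female 1 lay above every male, while female 1 lay below male 1. The log2 difference of females over males was 0.92, with a 2-sided exact permutation p of 0.0571 (adjusted p 0.0857 over 3 ratios). In the fit with the neuron marker mean, the log2 fold changes were 0.21 ± 0.0961 for *Slc12a5* and 0.18 ± 0.274 for *Slc12a2*. With sex alone they were 0.44 and -0.48. The ratio of *Gabbr1* to *Gabbr2* was 5.93, 5.38, 5.05 and 5.88 in females and 7.48, 6.45, 7.59 and 6.14 in males. Every female lay below every male, with a log2 difference of -0.31 and an exact p of 0.0286, the smallest that 4 mice against 4 allow (adjusted p 0.0857). For *Gabarap* over *Gabarapl1* the mean ratio was 0.262 ± 0.0499 for females and 0.366 ± 0.0977 for males (SD, n = 4 each), a log2 difference of -0.46 with an exact p of 0.143 before and after adjustment. None of the 3 ratios passed 0.05 after adjustment.

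**Figure D4:**
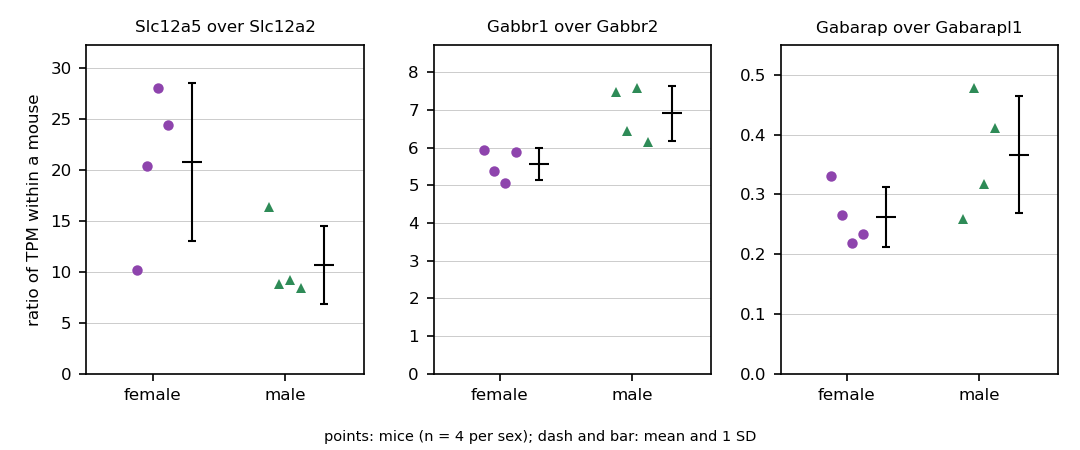
Ratios of TPM within each mouse for 3 pairs of genes, with females as circles, males as triangles, and the mean and 1 SD of 4 mice beside them. The ratio of *Gabbr1* to *Gabbr2* lies between 5.05 and 5.93 in females and between 6.14 and 7.59 in males, and the other pairs overlap.

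*Slc6a11*, *Gabrg1*, *Slc12a2* and *Abat* are also known from astrocytes, so their log2 CPM was set against the mean log2 CPM of the 8 astrocyte markers over the 8 mice. *Slc6a11* followed the markers (Pearson r = 0.824, exact permutation p = 0.0104, adjusted p 0.0228 over 4 relations, Spearman rho = 0.857, p = 0.0107). The 2 mice farthest from the median of the markers were female 3, the lowest, and male 2, the highest, and without them r was 0.872 (exact p = 0.0222). *Slc12a2* had r = 0.702 (exact p = 0.0240, adjusted p 0.0320), but rho was 0.595 (p = 0.132), and without the same 2 mice r was 0.701 with an exact p of 0.121. *Abat* ran the opposite way (r = -0.775, exact p = 0.0114, adjusted p 0.0228, rho = -0.833, p = 0.0154), and without the 2 mice r was -0.469 (exact p = 0.332), so that in log2 CPM the relation rested on them. In log2 TPM its r was -0.948 (exact permutation test, adjusted p 0.00139), and on the first block of values alone -0.871 (adjusted p 0.00813). On the second block alone the adjusted exact p was not under 0.05 for *Abat* or *Slc12a2*. In log2 TPM it was not under 0.05 for *Slc6a11* or *Slc12a2*. *Gabrg1* had r = -0.07 (exact p = 0.895, adjusted p 0.895, rho = -0.214, p = 0.619) and r = -0.568 without the 2 mice (exact p = 0.261). Left out singly, female 3, female 4, male 3 or male 4 took the adjusted exact p of *Slc6a11* past 0.05, up to 0.145 without female 3, where r was 0.603. In the astrocyte marker mean, 3 of the 4 males lay above every female, and with 4 mice in a sex the relations were not tested within a sex.

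**Figure D5:**
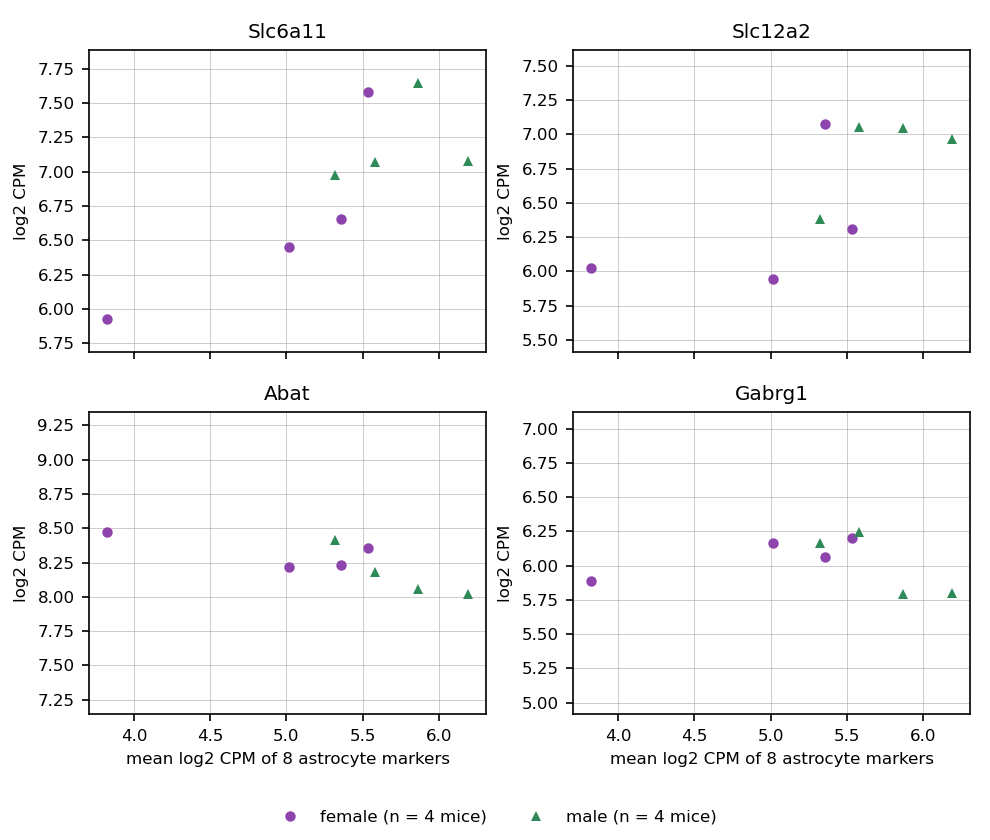
Log2 CPM of *Slc6a11*, *Slc12a2*, *Abat* and *Gabrg1* in each mouse against the mean log2 CPM of 8 astrocyte markers, with females as circles and males as triangles. The vertical axes span the same range. *Slc6a11* climbs with the markers (r = 0.824) and *Gabrg1* does not (r = -0.07).

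Among 25 further genes of inhibitory transmission, 20 had enough counts to be tested, 10 had a log2 fold change above 0 and 10 below, and none passed an adjusted p of 0.05. At an unadjusted p under 0.05, 3 were higher in females and 3 in males, beside 9.86% and 10.7% of all genes. The 4 highest were *Gad1*, which makes GABA, with a mean of 243 TPM, *Gabarapl2*, a further relative of *Gabarap*, with 144 TPM, *Gad2* with 125 TPM and *Clptm1* with 114 TPM. Their log2 fold changes were 0.06 ± 0.168, -0.06 ± 0.0933, 0.12 ± 0.179 and -0.08 ± 0.0775. *Gabrp* was at 0 in all 8 mice. The sexes did not overlap for *Glra4*, *Shisa7* and *Kctd8*, higher in females, and for *Slc12a7*, higher in males, which were singled out after their values were seen, while 6.48% and 3.94% of all genes were apart in these directions. *Glra4*, with only 0 to 41 counts per mouse, had a log2 fold change of 3.40 ± 0.677 (edgeR adjusted p 0.0788). That of *Shisa7* was 0.81 ± 0.156 (adjusted p 0.0690). *Kctd8*, a GABA-B receptor partner, had a log2 fold change of 0.89 ± 0.139 (adjusted p 0.0578), and *Slc12a7*, a chloride exporter like *Slc12a5*, had -1.16 ± 0.233 (adjusted p 0.0798). Of the other partners of that family on the list, *Kctd12* had -0.83 ± 0.301 (adjusted p 0.185) and *Kctd16* had -0.09 ± 0.212 (adjusted p 0.836), and the sexes overlapped for both.

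Reads of some genes could be split with others. Of the 31-base stretches in *Gabarapl1* transcripts, 25.2% occurred in another gene, *1700101I11Rik* on the opposite strand, which covers 28.3% of its exonic bases. For *Aldh5a1* the share was 15.4%, again with genes on the opposite strand. *Glra1* had 4.55%, *Gabra5* 4.21%, *Glrb* 3.82% and *Gphn* 3.10%, and the other 22 genes had at most 1.28%. The overlapping opposite-strand genes were not analysed here, and whether the counting used strand is not given in the sources used here, so the levels of *Gabarapl1* and *Aldh5a1* are uncertain to that degree. *Gabra4* and *Gabrb1* lie head to head and share 46 exonic bases on opposite strands.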

How the data were processed

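The authors sequenced RNA of sorted TN SST neurons in single-end reads, with a stranded total RNA kit and 1 library for each of 4 females and 4 males. Per the labels, reads were assigned to mouse transcripts (mm10) with kallisto 0.46.2, and DESeq2 2.11.40.6 was used for their comparison. The authors deposited the estimated count of each transcript, without normalization between mice, and TPM, in which each count is divided by effective length and scaled to a fixed sum. A mouse's file listed all transcripts in 2 successive blocks, and what the blocks are is not given in the sources used here. Estimated counts were summed over blocks and TPM was averaged.

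Transcripts were joined to genes with GENCODE M21 (116728 of 118489), and those without a match, with 0.429% to 0.611% of a mouse's counts, were left out. Gene counts were rounded and compared with edgeR 4.0.16 (R 4.3.3, limma 3.58.1, TMM factors of 0.841 to 1.16, the default filter on low counts, quasi-likelihood test, sex as the only term, Benjamini-Hochberg adjustment over all genes tested, threshold 0.05). DESeq2 1.42.0 was the alternative test. CPM is scaled by TMM, and log2 CPM used a prior count of 2. Exact permutation tests were 2-sided and made with scipy 1.17.1 in Python 3.11.15 (numpy 2.4.6, pandas 2.3.3, matplotlib 3.10.9 for plots). The fit was tested on simulated data with known changes.

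The inhibitory genes and marker lists were chosen with earlier results of these data known. All 28 inhibitory genes are named. Genes of the wider pathway list are named where past the threshold or among the 4 highest by TPM, with the exceptions given in the text. The mouse is the replicate, and the p-values measure the spread between mice. Alternatives were another normalization, no filter, at least 10 counts in at least 4 mice, a transcript length offset, a replicate block, each block of values alone, *Lars2* left out, marker means as covariates, CPM or TPM in place of the other, and each mouse left out. Sequences and coordinates were read from GENCODE M21 transcripts. The *Slc12a5* start sequences are not reported here.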

Additional observations from a re-analysis of the deposited data

Results flagged for a closer look

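Within each sex, a mouse was picked out when its gap to the nearest of the other 3, divided by the range of the 4, was above Dixon's 95% critical value for 4 samples. Of 60 groups of 4 mice looked at, 11 had such a mouse, where chance gives about 1 in 20 groups. In TPM, female 3, the deepest library and the one with the lowest astrocyte marker mean (log2 CPM 3.82), was the high mouse among females for *Gabrd* (9.51), *Glra3* (32.8), *Abat* (159.6) and *Gabarapl1* (474). Female 4 was high for *Gabrg1* (47.3 TPM) and female 1 for the chloride importer *Slc12a2* (36.2 TPM), while female 2 was low for *Gphn* (32.1 TPM). Among males, male 4 was high for the GABA transporter *Slc6a11* (81.7 TPM), male 3 for *Gabrd* (4.44 TPM) and male 1 for the ratio of *Slc12a5* to *Slc12a2* (16.4), and male 2 was low for *Gabra5* (36.0 TPM). For *Gabrd*, male 3 had 24 counts. It was the lowest male for this gene in CPM (2.14) and with protein-coding transcripts alone (1.69 TPM). Male 2 also had the highest astrocyte marker mean (log2 CPM 6.19) and the lowest neuron marker mean (log2 CPM 7.81). The part of these differences in the values was not tested.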

How the results depend on the processing

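No inhibitory gene passed the threshold with another normalization, either filter, the length offset, the replicate block, either block of values alone or *Lars2* left out. DESeq2 called 8 inhibitory genes and 1052 genes in all, and leaving out a mouse gave 0 to 3 inhibitory genes and 8 to 415 genes in all. The genes called in all were 14 with the length offset, 3 with the neuron marker mean, 11 with the astrocyte and microglia marker mean and 1 with the replicate block, beside 24 with sex alone; the cause was not tested. Same-numbered mice did not deviate together (correlations of -0.396, -0.156, 0.0356 and 0.0719), so the block pairs mice that share only a number.

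Across 27 genes and 19 alternatives each, 17 of 513 log2 fold changes reversed, in 10 genes, none of which passed the threshold in either form, and 14 newly passed it, 8 with DESeq2 and 6 without female 1 or male 1. With the neuron marker mean, those of *Gabrg1* (-0.17), *Gabbr1* (-0.018), *Glra3* (-0.059), *Nlgn2* (-0.18), *Abat* (-0.15), *Aldh5a1* (-0.046), *Gabarapl1* (-0.19) and *Iqsec3* (-0.30) fell below 0 and that of *Slc12a2* (0.18) went above it. With the astrocyte and microglia marker mean, *Glra3* (-0.0082), *Nlgn2* (-0.043), *Abat* (-0.047), *Gabarapl1* (-0.050) and *Iqsec3* (-0.088) fell below 0. Leaving out a mouse moved *Gabrg1* between -0.00092 and 0.15 and *Glra1* between -0.017 and 0.23.

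The 3 ratios kept their sign throughout. Leaving out a mouse moved r against the astrocyte markers between 0.603 and 0.887 for *Slc6a11*, 0.656 and 0.759 for *Slc12a2*, -0.855 and -0.686 for *Abat* and -0.756 and 0.252 for *Gabrg1*, and for the former 3 genes the adjusted exact p was no longer under 0.05 in 14 of 24 such fits. The same held on the second block alone for *Slc12a2* (0.723) and *Abat* (-0.664) and in log2 TPM for *Slc6a11* (0.660) and *Slc12a2* (0.599). Among levels, expressed as mean log2 ratios within a mouse, protein-coding transcripts alone turned *Gabra2* over *Gabra4* from 0.68 to -0.83 and *Gabre* over *Gabrq* from 0.13 to -0.58, and leaving out the short *Gabrb1* transcript turned *Gabrb1* over *Gabrb2* from 1.25 to -0.34. Both alternatives were chosen after the data were seen. *Gabrd* and *Gabra6* were limited by their counts.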
